A study of Homo sapiens with 2 samples.

Results

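The genes described here lie in a window of chromosome 4, band 4p16, near the tip of the short arm. They were selected on read counts and position, as the rows of the deposited gene table on chromosome 4 with a coding start from 1200000 to 8500000 (GRCh38, as all positions here) and at least 100 reads in the library with more reads; 1 gene was left out beforehand. This gave 54 genes of the 107 other rows in the window and of 29972 rows in all. The table compares 1 untreated tumour with 1 T-DM1-refractory tumour. T-DM1 is trastuzumab emtansine, an antibody against HER2 coupled to the microtubule poison DM1. Both were grown under the skin of nude mice, near the right hindmost rib, from NCI-N87, an established human gastric carcinoma line with amplified ERBB2, and their total RNA was made into mRNA libraries. T-DM1 was given once every 3 weeks over 18 weeks, and the untreated tumour had none. Each group was 1 tumour and 1 library, so no difference below has a replicate check and no test across samples was possible. Nude mice lack a thymus and keep other host cells, and the sources used here do not say how reads of mouse cells were handled.

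The window was chosen by the same read counts that are compared here, because its genes were higher in the refractory library, so the values below describe the choice and do not support it. The name "upregulated" held for most members only: 4 of the 54 were at least 2-fold lower, against 11.2% of all genes with 100 reads, and 19 differed by less than 2-fold. Band 4p16 is gene-dense. It is known for the deletion that causes Wolf-Hirschhorn syndrome, after which WHSC1 and NELFA (also WHSC2) were named, and for the genes of Huntington disease (HTT) and Wolfram syndrome (WFS1). Its genes belong to unrelated pathways, among them chromatin regulation, spindle assembly, membrane traffic and mitochondrial protein import, and neighbours on a chromosome can share start regions and overlap on opposite strands.

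Depth was 75722117 expected counts for the untreated tumour and 59902704 for the refractory one. The markers of the line were present: EPCAM stood at 471 and 785 CPM (counts scaled to 1000000 per library) in the untreated and refractory tumour, the order used for all pairs of values here, KRT18 at 1215 and 922 CPM, and ERBB2 at 7267 and 7975 CPM. Of the markers of leukocytes, endothelium and fibroblasts, CD3E and CDH5 had 0 reads in both libraries, and PTPRC, PECAM1 and PDGFRB were at or under 0.287 CPM. COL1A1 stood at 2.92 and 1.80 CPM. CD68, a lysosomal protein of macrophages that epithelial cells also make, stood at 3.62 and 29.2 CPM, and its part in the results below was not tested. In a bulk tumour, more cells that express a gene and more RNA per cell cannot be told apart.

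Most genes of the window were moderately and similarly higher in the refractory tumour. Differences are given as log2 of refractory over untreated after 1 CPM was added to both, so that 1 means 2-fold, and the added CPM understates the difference of low genes. The 54 log2 differences had a median of 1.04, with the middle 50% from 0.72 to 1.34, and 31 genes were at least 2-fold higher. Over all 13659 genes with 100 reads in either library the median was 0.03, 9.91% were called higher and 11.2% lower at 2-fold. A 1.5-fold difference was reached by 47 of the 54 genes, against 19.4% of all genes. Since the window was chosen for this difference, nothing is read from the distance between these shares.

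The sizes of the differences can also be given as plain ratios of CPM. These lay between 1.5 and 3 for 37 of the 54 genes (68.5%), against 15.3% of all genes, and their median was 2.10. The middle 50% of log2 differences spanned 0.62 in the window and 0.84 over all genes. A narrow span was not particular to the window: it was 0.50 over the 21 genes from 8.5 to 20 Mb of chromosome 4. It was 0.88 over the 60 genes from 20 to 50 Mb and 0.96 over the 19 genes before the window. Among the 35 members at 10 CPM or more in the untreated tumour, 28 had a ratio from 1.5 to 3, against 13.3% of all genes at that level. The band from 1.5 to 3 lies around the members' own median. Both comparisons of shares therefore follow in part from the choice of the window, and nothing is read from them. Among the 19 members under 10 CPM the spread was wider, with a middle 50% from 0.64 to 1.79. Summed over the 54 members the level was 1505 CPM (untreated) against 2938 CPM (refractory), or 1.95 times as much. Without AFAP1-AS1, which alone made up 142 CPM of the untreated sum, the ratio was 2.15.

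**Figure D1:**
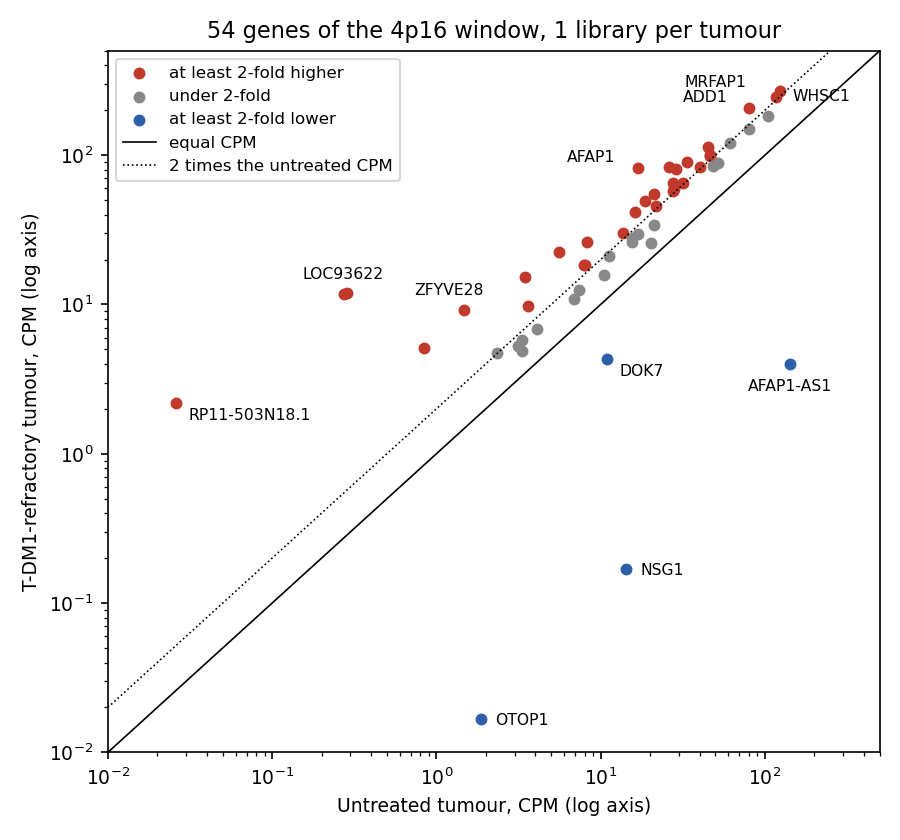
CPM of the 54 members in the untreated (horizontal) and the T-DM1-refractory tumour (vertical), both on log axes, with 1 point per gene and no replicates. Most points lie along the dotted line of 2 times the untreated level, and DOK7, AFAP1-AS1, NSG1 and OTOP1 lie below the line of equal CPM.

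Along the window, the difference was present from one end to the other, with a dip near its middle. Between 1.2 and 2.0 Mb all 13 members were higher, with a median log2 difference of 1.08, and between 2.0 and 3.0 Mb all 12 were, with a median of 1.08. From 3.0 to 3.9 Mb the 4 members had a median of 0.72, and from 3.9 to 5.0 Mb the 7 members had one of 0.60. Those 2 stretches hold 3 of the 4 lower genes. Between 5.0 and 7.5 Mb all 12 members were again higher (median 1.22), and they lie between WFS1 and GRPEL1. In the last stretch, up to 8.5 Mb, 5 of 6 members were higher, at unequal sizes such as 0.68 for TRMT44 and 2.23 for AFAP1, and AFAP1-AS1 stood at -4.84. The stretch bounds were set after the values were seen.

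**Figure D2:**
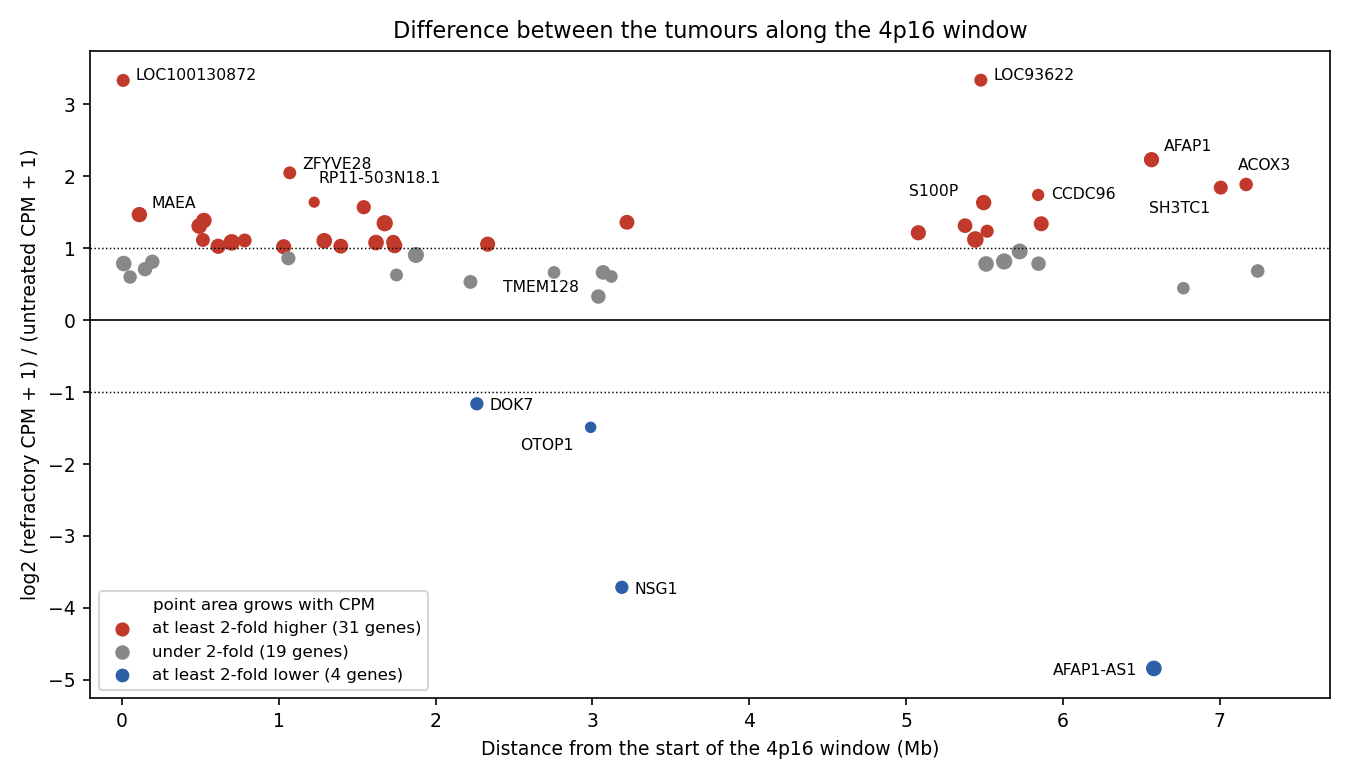
log2 difference of each of the 54 members (vertical) by the distance of its coding start from the start of the window in Mb (horizontal), with the area of a point growing with its CPM and dotted lines at 2-fold. The 31 genes at least 2-fold higher occur along the whole window, the 4 lower ones are named, and TMEM128 is the smallest difference among the 50 higher ones.

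Chromatin and transcription genes formed the most even group as assigned: 14 of 14 were higher, between 0.60 and 1.12 on the log2 scale, and 6 of them passed 2-fold. The groups were set with earlier results known. The counts of each group below stand beside 57.4% higher and 7.41% lower at 2-fold among the 54 members. Over all genes with 100 reads the shares were 9.91% and 11.2%. The groups hold 3 to 14 genes, and nothing is read from differences between their counts. LOC93622, a relative of MRFAP1 and MRFAP1L1 of this group, was not assigned to it and stood at 3.33. WHSC1 (now NSD2, coding part at 1900655 to 1978909), which methylates histone H3 at lysine 36, stood at 116 CPM untreated and 246 CPM refractory, with a ratio of 2.12 (95% interval 2.07 to 2.18). These intervals are exact for a pair of counts and cover counting error only, not differences between tumours, since each group is 1 library. They also do not allow for PCR copies of 1 molecule, which cannot be recognised in reads that carry no molecular identifier. NELFA, a subunit of the factor that pauses RNA polymerase II, stood at 8.01 and 18.4 CPM. RNF4, a ubiquitin ligase that recognises SUMO chains, stood at 46.3 and 100.3 CPM. NOP14, needed to make the small ribosomal subunit, stood at 40.0 and 83.0 CPM, and FAM193A at 21.8 and 45.3 CPM. All 5 of these genes therefore lay within a narrow band around 2-fold.

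The 8 others of this group were between 1.5-fold and 2-fold higher. CTBP1, a transcriptional corepressor, stood at 48.5 and 84.3 CPM, and MXD4, a MAX-binding antagonist of MYC, at 11.3 and 21.2 CPM. TADA2B, an adaptor of the SAGA histone acetyltransferase, stood at 16.8 and 29.6 CPM. LYAR, a nucleolar zinc finger protein, was at 21.3 and 34.2 CPM and the zinc finger gene ZBTB49 at 3.14 and 5.29 CPM. KIAA0232 stood at 104 and 183 CPM and MRFAP1L1 at 51.5 and 89.0 CPM. CRIPAK, at 15.5 and 27.9 CPM, starts within the bounds of UVSSA and the reads of the pair may not be separable.

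All 6 genes of cell division and nucleic acid processing were higher, 4 of them by at least 2-fold. MAEA, a subunit of the CTLH ubiquitin ligase, stood at 28.6 and 80.8 CPM, with a ratio of 2.82 (95% interval 2.68 to 2.97). TACC3, which stabilises spindle microtubules together with clathrin, stood at 33.8 and 89.6 CPM (ratio 2.66, 95% interval 2.53 to 2.78). SLBP, which binds the stem-loop of histone mRNAs, stood at 45.3 and 114 CPM, and HAUS3, a subunit of the augmin complex that branches spindle microtubules, at 27.7 and 57.2 CPM. UVSSA, a transcription-coupled repair factor, and TRMT44, a tRNA methyltransferase, were below 2-fold at 15.6 and 26.1 CPM and at 7.40 and 12.5 CPM.

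Signalling genes were fewer and more mixed, with 3 of 5 past 2-fold upward and 1 downward. S100P (coding part at 6693933 to 6697042), a small calcium-binding protein of gut and carcinoma epithelium, stood at 26.1 and 82.8 CPM, a ratio of 3.18 (95% interval 3.02 to 3.35). Per length it was the most abundant member, at 114.5 and 373 FPKM (fragments per kilobase of transcript, scaled by library size). TNIP2, an inhibitor of NF-kB activation, was at 8.24 and 26.4 CPM (ratio 3.20, 95% interval 2.92 to 3.52), and SH3BP2, an adaptor of immune and bone cells, at 46.3 and 98.6 CPM. RGS12, a regulator of G protein signalling, differed less, at 10.5 and 15.7 CPM. DOK7, the adaptor that activates the muscle kinase MuSK, was lower in the refractory tumour, at 10.9 against 4.30 CPM (ratio 0.3955, 95% interval 0.342 to 0.456), although its neighbours RGS12 and LRPAP1 were higher.

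Of the 14 genes of membrane traffic, ER and lysosome, 9 passed 2-fold upward and 2 downward. These shares, 64.3% and 14.3%, stand beside 57.4% and 7.41% of the 54 members. The largest increase among them was that of ZFYVE28, a FYVE-domain regulator of EGF receptor endocytosis, at 1.48 and 9.22 CPM (ratio 6.24, 95% interval 5.09 to 7.71). SH3TC1 stood at 5.56 and 22.5 CPM (ratio 4.04, 95% interval 3.62 to 4.52). STX18, a SNARE of the ER, stood at 18.6 and 49.1 CPM, MAN2B2, a lysosomal mannosidase, at 16.2 and 41.7 CPM, and WFS1, an ER membrane protein, at 27.7 and 65.5 CPM. These last 3 had ratios between 2.36 and 2.65, close to the rest of the window.

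Others of the group lay near 2-fold. BLOC1S4, a subunit of the BLOC-1 complex of lysosome-related organelles, was at 3.60 and 9.81 CPM, and TMEM129, an ER ubiquitin ligase, at 7.94 and 18.3 CPM. MFSD10, a transporter, stood at 13.7 and 30.1 CPM and LRPAP1, the chaperone of LDL receptor family proteins, at 28.1 and 59.3 CPM. HTT, which encodes huntingtin, stood at 79.5 and 149.7 CPM (ratio 1.882, 95% interval 1.821 to 1.945). The Rab GTPase-activating protein gene TBC1D14 stood at 61.6 and 120.1 CPM, and both were just under 2-fold. TMEM128 differed least of the higher genes, at 20.4 and 25.8 CPM (ratio 1.27, 95% interval 1.18 to 1.36). The 2 lower genes, NSG1 and OTOP1, are described further on.

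Of the 4 cytoskeletal genes, 3 were at least 2-fold higher. ADD1, an adducin that caps actin filaments and joins them to spectrin, stood at 80.4 and 206 CPM, a ratio of 2.56 (95% interval 2.48 to 2.64). CCDC96, now named as a cilia- and flagella-associated protein, stood at 0.837 and 5.12 CPM (ratio 6.12, 95% interval 4.66 to 8.15). AFAP1, which bundles actin filaments and activates SRC, stood at 16.8 and 82.2 CPM, with a ratio of 4.90 (95% interval 4.61 to 5.22), the largest among members above 10 CPM in the untreated tumour.

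AFAP1-AS1, a long noncoding RNA on the strand opposite to AFAP1 (7754090 to 7778928 in GENCODE 29, sharing 20215 bases with it), went the other way. It was the most abundant member by CPM in the untreated tumour, at 142 CPM, and stood at 3.995 CPM in the refractory one, 35.5-fold lower (95% interval 31.3 to 40.6). Reads that fall where the 2 genes overlap cannot be told apart unless strand was used in counting, and on that the sources are silent. The deposited reads of the refractory library were 4876.9 for AFAP1 and 237.1 for AFAP1-AS1, neither whole and together 5114, so some were divided between them. Added up, the pair came to 159 and 86.2 CPM, 1.84-fold lower in the refractory tumour.

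All 3 genes of mitochondria and metabolism were at least 2-fold higher. ACOX3, a peroxisomal oxidase of branched-chain fatty acids, stood at 3.44 and 15.4 CPM (ratio 4.47, 95% interval 3.89 to 5.15). GRPEL1, the nucleotide exchange factor of the mitochondrial import motor, stood at 21.1 and 54.8 CPM, and LETM1, a cation transporter of the inner mitochondrial membrane, at 31.6 and 65.4 CPM. The size for GRPEL1 and LETM1, 2.60 and 2.07, was again close to that of most members.

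The 2 largest increases on the log2 scale belonged to rows that fall in no group above and were nearly silent in the untreated tumour. LOC93622, which RefSeq now lists as MRFAP1L2, had 21 reads in the untreated and 702 in the refractory library, or 0.275 and 11.8 CPM (ratio 43.1, 95% interval 27.96 to 70.0). LOC100130872, a long noncoding RNA next to CTBP1, had 22 and 708 reads, or 0.288 and 11.9 CPM (ratio 41.5, 95% interval 27.2 to 66.6). RP11-503N18.1, beside RNF4, had 2 and 130 reads (ratio 83.8, 95% interval 22.7 to 699). For these 3 genes the added 1 CPM compressed the log2 difference to 3.33, 3.33 and 1.64. The other members outside the groups were higher by less than 2-fold on the log2 scale used: CTBP1-AS at 2.35 and 4.70 CPM, CTBP1-AS2 at 6.88 and 10.9 CPM, NOP14-AS1 at 4.11 and 6.88 CPM and the pseudogene FAM86EP at 3.31 and 5.82 CPM. These share sequence or position with other genes, and their counts are uncertain for that reason.

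Levels between genes can be compared only per length, on the FPKM scale. After S100P, MRFAP1 was the next highest member, at 66.5 and 143.7 FPKM, whereas the long transcript of HTT, among the 5 highest by CPM in the refractory tumour, stood at 6.09 and 11.2 FPKM. SLBP (31.7 and 78.4 FPKM), MRFAP1L1 (39.6 and 67.8 FPKM), ADD1 (22.1 and 56.2 FPKM), GRPEL1 (17.4 and 44.7 FPKM) and WHSC1 (17.1 and 34.6 FPKM) were in between. Of the genes with the largest increases, AFAP1 stood at 11.5 FPKM against 2.37 in the untreated tumour, LOC93622 at 8.51 against 0.200, ACOX3 at 5.83 against 1.33 and SH3TC1 at 5.40 against 1.37. CCDC96 stood at 2.72 FPKM against 0.451, LOC100130872 at 2.52 against 0.0618 and ZFYVE28 at 2.49 against 0.5245. TNIP2 stood at 5.90 and 18.5 FPKM. Of the lower genes, AFAP1-AS1 stood at 22.01 and 0.6085 FPKM and NSG1 at 6.74 and 0.0785 FPKM. In all, 18 members were at 10 FPKM or more in the untreated and 26 in the refractory tumour.

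LOC93622 lies between 2 relatives, MRFAP1 and MRFAP1L1, named for binding to MORF4-family chromatin proteins, and the 3 are shown together because they differed so unequally. MRFAP1 (coding part at 6640863 to 6641246) was the highest member of the window by CPM in the refractory tumour, at 124 and 269.7 CPM (ratio 2.18, 95% interval 2.13 to 2.24), and MRFAP1L1 had a ratio of 1.73. Thus the outer 2 genes were abundant in both tumours, whereas LOC93622, at a ratio of 43.1, was low in the untreated one. Genes of near-identical sequence can share reads. The deposited reads of these 3 rows were whole numbers, as were 92.8% of all counts in the untreated and 93.2% in the refractory library. Whole numbers therefore do not show whether reads were shared. Their start regions, from 250 bases before to 50 after the RefSeq start (GRCh38.p14, 5′ to 3′ on the gene's strand), lie at chr4:6640435-6640734, chr4:6673825-6674124 and chr4:6709816-6710115, on the plus, plus and minus strand. Capitals mark the runs of 8 or more bases found in all 3.
MRFAP1: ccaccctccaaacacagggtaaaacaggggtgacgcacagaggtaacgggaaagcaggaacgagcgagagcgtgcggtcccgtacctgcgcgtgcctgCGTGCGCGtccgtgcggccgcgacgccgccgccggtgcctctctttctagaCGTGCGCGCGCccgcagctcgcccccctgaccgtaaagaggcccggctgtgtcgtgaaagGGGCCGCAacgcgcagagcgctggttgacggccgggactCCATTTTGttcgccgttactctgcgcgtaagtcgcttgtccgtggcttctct
LOC93622: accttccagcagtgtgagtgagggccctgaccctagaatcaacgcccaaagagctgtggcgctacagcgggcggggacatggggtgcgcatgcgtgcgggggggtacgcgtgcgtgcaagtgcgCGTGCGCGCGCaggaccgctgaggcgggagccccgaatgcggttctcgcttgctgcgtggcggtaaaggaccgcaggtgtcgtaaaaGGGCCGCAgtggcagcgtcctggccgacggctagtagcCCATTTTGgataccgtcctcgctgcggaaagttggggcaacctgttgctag
MRFAP1L1: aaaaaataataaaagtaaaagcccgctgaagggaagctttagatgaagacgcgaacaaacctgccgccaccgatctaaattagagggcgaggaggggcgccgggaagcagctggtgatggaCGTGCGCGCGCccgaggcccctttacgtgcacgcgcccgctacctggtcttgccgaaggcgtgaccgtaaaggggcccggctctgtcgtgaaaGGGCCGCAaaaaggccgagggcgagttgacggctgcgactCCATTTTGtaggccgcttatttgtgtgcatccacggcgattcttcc
The runs common to all 3 include CCATTTTG near the start, GGGCCGCA before it, and CGTGCGCG. The longest run shared by MRFAP1 and MRFAP1L1 has 16 bases, and LOC93622 shares at most 11 with either.

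The start regions of the other large increases are shown for the same reason, with matches to 7 motifs in capitals. The motifs, searched on both strands and allowed to overlap, were the GC box GGGCGG, the CCAAT box, the TATA box TATAAA, the ETS motif CCGGAAG, the E-box CACGTG, the AP-1 motif TGACTCA and the NRF1 motif. LOC100130872 lies at chr4:1208913-1209212, AFAP1 at chr4:7939812-7940111 and ZFYVE28 at chr4:2418596-2418895, all on the minus strand.
LOC100130872: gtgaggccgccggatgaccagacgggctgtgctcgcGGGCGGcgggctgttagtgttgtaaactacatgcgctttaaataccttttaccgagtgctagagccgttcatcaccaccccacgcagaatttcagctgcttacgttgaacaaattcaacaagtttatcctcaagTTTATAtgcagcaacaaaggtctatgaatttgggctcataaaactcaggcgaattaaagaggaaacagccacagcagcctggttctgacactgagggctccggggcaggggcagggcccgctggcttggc
AFAP1: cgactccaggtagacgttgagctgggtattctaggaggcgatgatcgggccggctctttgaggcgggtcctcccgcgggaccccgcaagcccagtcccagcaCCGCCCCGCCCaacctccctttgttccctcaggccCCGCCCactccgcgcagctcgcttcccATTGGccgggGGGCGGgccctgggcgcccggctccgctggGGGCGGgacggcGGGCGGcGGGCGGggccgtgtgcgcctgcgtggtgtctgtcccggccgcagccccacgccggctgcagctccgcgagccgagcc
ZFYVE28: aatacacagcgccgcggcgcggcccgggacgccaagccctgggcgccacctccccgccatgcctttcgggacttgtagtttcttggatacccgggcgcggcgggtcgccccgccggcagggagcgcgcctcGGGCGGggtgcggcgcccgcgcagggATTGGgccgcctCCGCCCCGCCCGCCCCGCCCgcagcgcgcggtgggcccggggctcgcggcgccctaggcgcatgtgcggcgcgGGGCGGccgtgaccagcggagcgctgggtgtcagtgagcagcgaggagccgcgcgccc
AFAP1 and ZFYVE28 carry GC boxes in clusters, 7 and 6 matches, and 1 CCAAT box each, while LOC100130872 has 1 GC box and a TATA box match on the opposite strand. A match is a description of letters and not a binding site.

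RefSeq start regions were found for 44 of the 54 members, and among those without one were CTBP1-AS, CRIPAK, TMEM129, LETM1, RP11-503N18.1, FAM86EP, BLOC1S4, GRPEL1 and AFAP1-AS1. The 44 were rich in GC and in CpG dinucleotides: the median GC content was 71.3%, against 65% for the 9806 start regions of other genes with 100 reads, and the median number of CpG was 33 against 26. At least 15 CpG were present in 93.2% and 80.6%. S100P stood apart with 5 CpG, the fewest of the 44, and a TATA box match. A GC box was present in 70.5% of the members against 69.2% of those other genes and 44.6% of all 27305 start regions of the table. The CCAAT box was present in 38.6% (36.6% of other genes with 100 reads, 35.7% of all), the E-box in 13.6% (9.86% and 7.43%), the ETS motif in 15.9% (19% and 10.7%) and the TATA box in 6.82% (5.89% and 12%). The letters of the AP-1 and NRF1 motifs were in 0 of the 44, against 3.21% and 2.2% of other genes with 100 reads, and 4.92% and 1.36% of all.

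Neighbouring genes that start back to back on opposite strands did not always differ by the same size. For 4 pairs of members the RefSeq starts faced away from each other, at most 1000 bases apart. By the GENCODE gene bounds, however, CCDC96 and TADA2B share 1041 bases on opposite strands, and ACOX3 and TRMT44 share 4584. Whether reads from these overlaps affected the counts of either pair was not tested. CTBP1 and CTBP1-AS2, whose first parts overlap, had log2 differences of 0.78 and 0.60. LYAR and ZBTB49, with starts 97 bases apart, had log2 differences of 0.66 and 0.60. MFSD10 and NOP14-AS1, 721 bases apart, had 1.08 and 0.63, and CCDC96 and TADA2B, 371 bases apart, had 1.74 and 0.78. ACOX3 and TRMT44 start 54 bases apart and differed by 1.88 and 0.68, and their start regions, which share 153 bases, are printed here (chr4:8440674-8440973 on the minus and chr4:8440527-8440826 on the plus strand, capitals as before).
ACOX3: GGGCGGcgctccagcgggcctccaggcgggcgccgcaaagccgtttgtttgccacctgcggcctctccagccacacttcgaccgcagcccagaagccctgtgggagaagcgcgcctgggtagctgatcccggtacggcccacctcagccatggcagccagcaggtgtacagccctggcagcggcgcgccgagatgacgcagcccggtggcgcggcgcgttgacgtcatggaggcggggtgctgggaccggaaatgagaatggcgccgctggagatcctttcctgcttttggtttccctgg
TRMT44: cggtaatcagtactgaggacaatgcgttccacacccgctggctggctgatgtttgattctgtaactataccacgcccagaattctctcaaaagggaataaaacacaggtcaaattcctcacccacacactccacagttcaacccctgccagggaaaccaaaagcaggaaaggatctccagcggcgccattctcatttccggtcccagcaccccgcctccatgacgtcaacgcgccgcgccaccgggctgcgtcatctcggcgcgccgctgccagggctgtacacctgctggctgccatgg
The shared stretch, read from opposite ends, holds none of the 7 motifs, and the 1 match, a GC box, lies at the far end of the ACOX3 region.

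NSG1, OTOP1, DOK7 and AFAP1-AS1 were the 4 members that stood lower by 2-fold or more. NSG1 (coding part at 4387630 to 4417435), a neuronal endosome protein, had 1095 reads in the untreated and 10 in the refractory library, or 14.3 and 0.169 CPM, 85.0-fold lower (95% interval 46.0 to 178). Its 3′ end overlaps that of STX18 by 3317 bases on the opposite strand, and STX18 was 2.65-fold higher. OTOP1, a proton channel of sour taste cells and the inner ear, had 142 reads in the untreated and 1 in the refractory library, a ratio of 0.00908 (95% interval 0.000228 to 0.0514). So 2 genes that were expressed in the untreated tumour were at or near the limit of detection in the refractory one, within a stretch whose other 5 members were higher by 0.33 to 1.36 on the log2 scale.

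In the authors' deposited table, 6 of the higher and 3 of the lower members had a p-value under 0.05, against 3.35% (higher) and 5.67% (lower) of all genes with 100 reads. The higher ones were LOC100130872, ZFYVE28, RP11-503N18.1, LOC93622, CCDC96 and AFAP1, and the lower ones OTOP1, NSG1 and AFAP1-AS1. That p-value sets 1 library against 1, and the other members, most of them near 2-fold, did not pass it. By counting error alone the 95% interval of the ratio lay above 1 for 50 members and below 1 for 4, and over all genes with 100 reads it lay above 1 for 45.6% and below 1 for 41.8%.

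Many members encode a subunit whose partners are encoded elsewhere, and the partners as a group did not stand higher. Since the window was chosen for its higher genes, members above their partners follow in part from that choice. The values are a description, and nothing is read from the distance between members and partners. For 13 of 14 lists of complexes or families with a described 4p16 member, the member's log2 difference was between 0.78 and 1.46. The 90 partners from all 14 lists outside the window with 100 reads had a median of 0.02, with 3 called higher and 2 lower at 2-fold (9.91% and 11.2% of all genes). In 9 of the 13 lists every described partner was below the 4p16 member on this log2 scale. HAUS3 was at 1.02, and the other 7 augmin subunits lay between -0.91 (HAUS8) and 0.82 (HAUS7), with HAUS6 at -0.73. Without the added 1 CPM, the plain ratio of HAUS7 (2.11, at 2.18 and 4.62 CPM) was above that of HAUS3 (2.06). WHSC1 was at 1.08 and its 6 relatives among H3K36 methyltransferases between -0.51 (NSD1) and -0.07.

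The same held for other complexes. TACC3 was at 1.38, against -0.86 for its partner CKAP5, 0.46 for the kinase AURKA and 0.89 for its relative TACC1. MAEA was at 1.46 and the 10 other CTLH genes between -0.74 (GID4) and 0.54 (RANBP9). GRPEL1 was at 1.34 and the 8 other genes of the import machinery between -0.48 (TIMM44) and 0.57 (TIMM50), with DNAJC19 at -0.40. STX18 was at 1.36 and its 7 SNARE and tether partners between -0.16 (SEC22B) and 0.32 (BNIP1). SLBP was at 1.31, with LSM11 at -0.79 and LSM10 at 0.52, and ADD1 at 1.34 against 0.10 for ADD3.

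Exceptions were NELFE (18.09 and 59.0 CPM, log2 difference 1.65), above NELFA at 1.11, and BLOC1S5 (11.2 and 33.1 CPM, 1.49), above BLOC1S4 at 1.23. MYC, at 71.1 and 148 CPM (1.04), was above its antagonist MXD4 at 0.86, and SUPT3H (0.96) above TADA2B at 0.78. In the other direction the CtBP-binding repressor ZEB1 was at 10.1 and 3.15 CPM and the SAGA subunit SUPT20H at 123 and 56.0 CPM. In the list of the EvC ciliary complex no gene of the window was described: EVC had 3 reads and 0, and EVC2 had 0 in both libraries.

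**Figure D3:**
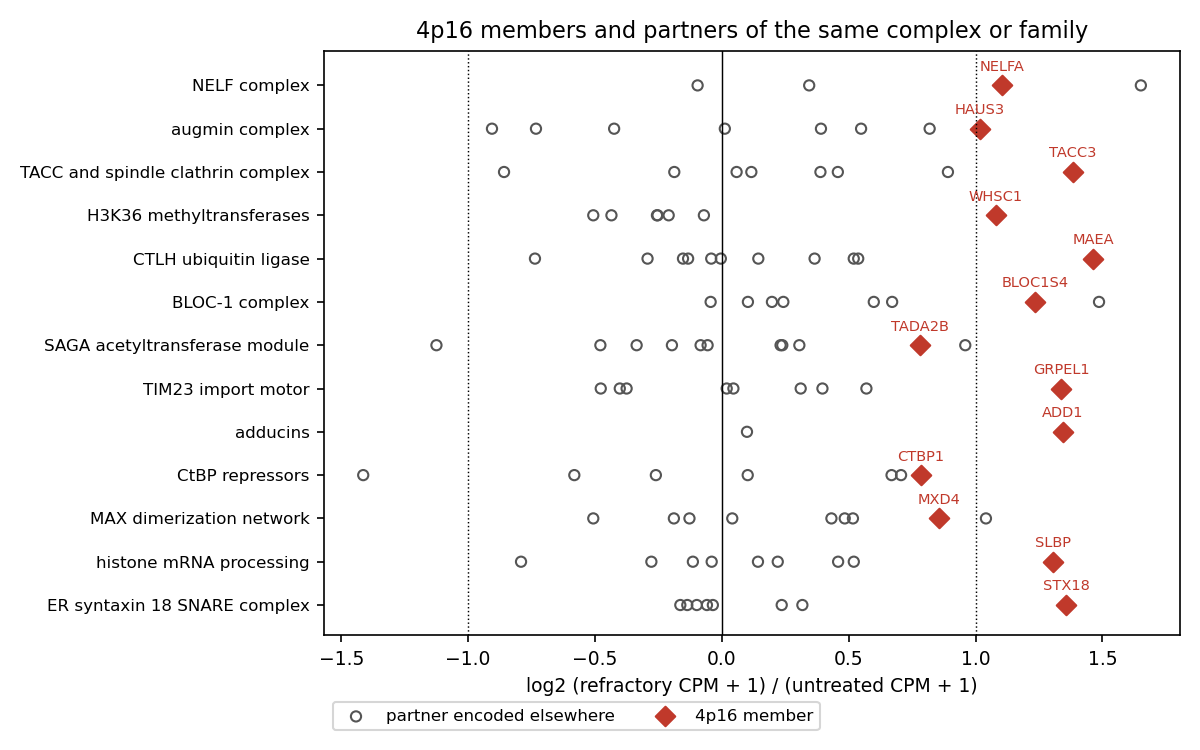
log2 difference of each 4p16 member (diamond) and of its partners encoded elsewhere (open circles) in 13 lists of complexes or families, for genes with 100 reads, with dotted lines at 2-fold. The members lie between 0.78 and 1.46, and the median of all partners outside the window is 0.02. The members come from a window chosen for this difference.

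Outside the window, the telomeric edge showed a local step, and higher genes lay further out on both sides. The genes named here besides the nearest on each side were chosen after their values were seen. On the telomeric side the nearest gene outside it, SPON2, stood at 13.4 and 14.4 CPM, and FGFRL1, IDUA and SLC26A1 beyond it were at -0.89, -0.14 and 0.00 on the log2 scale. Further out, GAK (1.24), TMEM175 (1.16), DGKQ (0.87), ATP5I (0.95) and PIGG (1.07) were at the size seen inside. Of the 19 genes before the window 5 passed 2-fold upward (26.3%) and 0 downward, with a median of 0.44. Over all genes with 100 reads these shares were 9.91% and 11.2%. On the other side no gene had 100 reads until WDR1, an actin-disassembly factor, at 82.2 and 270.4 CPM. Next to it ZNF518B stood at 0.497 and 45.8 CPM (ratio 92.2, 95% interval 67.0 to 130.5).

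Much of the rest of the short arm was also higher, though not all of it. From 8.5 to 20 Mb the 21 genes had a median log2 difference of 0.67. From 20 to 50 Mb the 60 genes had a median of 0.79, and 20 of them passed 2-fold upward (33.3%) and 4 downward (6.67%). Within that stretch lay a run of genes that were not higher, among them TBC1D1 (-0.17), FLJ13197 (-1.18), KLF3 (-0.13), TLR1 (-1.72) and TLR6 (-0.69), where the median of 11 neighbours stood at -0.13. Beyond 50 Mb the median over 340 genes was -0.12, and 25 passed upward and 50 downward. That run and the bounds at 20 and 50 Mb were chosen after the values were seen. The median of 11 neighbouring genes ranged from 0.60 to 1.71 at the 54 members, and from -2.84 to 1.35 elsewhere on chromosome 4. Among other regions of the genome with raised levels, the first 28000000 bases of chromosome 1 (1p36) were alike in size, with a median of 0.90 over 287 genes and 49.5% of ratios from 1.5 to 3. Chromosome 14 from 24000000 to 38000000 differed in shape, with a median of 0.45 over 60 genes, a middle 50% from -0.04 to 2.27 and 10% of ratios in that range. Neither difference from the window was tested.

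**Figure D4:**
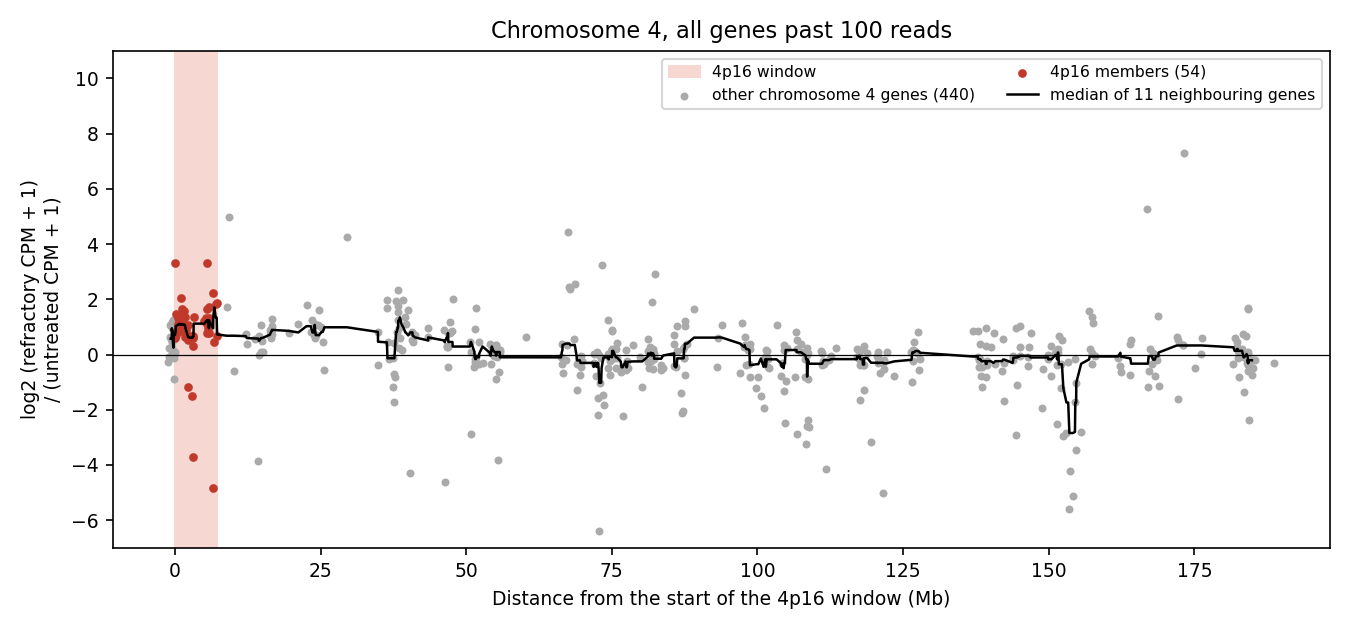
log2 difference of all chromosome 4 genes with 100 reads (vertical) by distance from the start of the window in Mb (horizontal), with the 54 members in red, the window shaded and the median of 11 neighbouring genes as a line. The line runs from 0.60 to 1.71 at the members, stays above 0 for a long stretch after the window and is lower further along.

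At the read minimum, the member with the fewest reads in its higher library was RP11-503N18.1 with 130, followed by OTOP1 with 142. Just below it were POLN, a DNA polymerase, with 80 reads in the untreated and 99 in the refractory library, and STX18-AS1 with 52 and 86. Both pointed the same way as most members, with ratios of 1.60 and 2.13.

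Of the 53 rows of the window under 100 reads in both libraries, 29 had 0 reads in both, among them the homeobox gene MSX1, the adrenergic receptor gene ADRA2C, CRMP1, JAKMIP1 and SORCS2. The other 24 had reads in at least 1 library, and 15 of them had a higher CPM in the refractory tumour. By counting error the 95% interval of the ratio lay above 1 for 10 and below 1 for 4. Of all 6497 rows with reads below that minimum, 38.9% had a higher CPM in the refractory tumour, and the interval lay above 1 for 13.8% and below 1 for 24%. FAM53A had 23 and 69 reads (ratio 3.87, 95% interval 2.38 to 6.50). LOC101928558 had 16 and 0 reads, LOC102724043 also 16 and 0, LOC100507054 25 and 2 and LOC101928279 28 and 7. All rows named in this paragraph were chosen after their values were seen.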

How the data were processed

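RNA of 1 untreated and 1 T-DM1-refractory tumour was compared, grouped by the labels. The authors deposited 1 table; the submitters' processing notes name RSEM 1.2.28, STAR 2.7.0e, edgeR 3.26.8 and bcl2fastq, with builds GRCh38 and GRCm38, but the role of each, the annotation and the use of strand are not given. Its expected counts are estimated reads per gene, and its FPKM are named so per the file headers. Against the CPM ratio used here, the deposited log2 fold change was within 0.0208 in all 13007 genes above 50 reads in each library. The authors' deposited p-value was only counted.

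Counts were rounded, scaled with TMM factors (1.0097 and 0.9904, edgeR 4.0.16 in R 4.3.3) and given as CPM. A gene at least 2-fold apart after adding 1 CPM was called. With 1 library per group no test was made. Ratios carry exact 95% intervals (Clopper-Pearson, scipy 1.17.1). Coding starts are counted from 1, and 43 members have a coding start and end in the table. For the other 11 the table gives 1 position. Gene bounds and strands are from GENCODE 29 (50 members), names from RefSeq (52 members). The members, role groups and partner lists were chosen with earlier results of these data known. Members may be named by the rule, 1 item is not reported here, and values come with intervals for the 10 largest differences each way and the 5 highest members, and for each partner list up to 3 partners farthest from 0. Scalings, pseudocounts, read minimums, FPKM, thresholds, window bounds and a length correction were varied. The 61 rows with no chromosome count towards library sizes only.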

Additional observations from a re-analysis of the deposited data

How the results depend on the processing

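Of the 54 members 31 were at least 2-fold higher, with a median log2 difference of 1.04. That median was positive under each of the 13 alternatives that give one: 1.02 with total counts, 1.04 with the median of ratios, 1.02 without the 50 most abundant genes, 1.07 and 0.89 with 0.1 and 5 CPM added, 0.77 with no read minimum, 0.81 and 1.08 with at least 20 and 500 reads, 0.92 with FPKM, 1.03 with the length trend removed, and 1.03, 1.22 and 0.95 for the window up to 5000000, from there to its end, and widened to the chromosome's tip. The number at least 2-fold higher moved past 1.5 times with 5 CPM added (20), at 1.5-fold (47) and 4-fold (4) and, with fewer members, up to 5000000 (20 of 36) and beyond it (11 of 18). FPKM gave 23, and the cause was not tested. The number at least 2-fold lower, 4, was 2 with 5 CPM added, 2 at 4-fold and 1 beyond 5000000. The share of all genes at least 2-fold higher, 9.91%, was 11.4% and 6% with 0.1 and 5 CPM added, 6.88% with no read minimum, 8.66% and 9.4% with 20 and 500 reads, 8.11% with FPKM and 9.29% with the length trend removed. No paired analysis was possible because each group is 1 library. Counting error limits members under 10 CPM most.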

Other observations

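Further along the short arm, CC2D2A differed by far more than its neighbours. CC2D2A, a protein of the ciliary transition zone, stood at 26.8 and 0.927 CPM, 28.85-fold lower in the refractory tumour (95% interval 22.1 to 38.4). It lies between CPEB2 (27.1 and 41.0 CPM) and FBXL5 (82.6 and 132 CPM), which were both higher. Other genes named here differed less. NCAPG, a condensin subunit, stood at 67.3 and 138 CPM and its neighbour LCORL at 9.88 and 25.4 CPM. Their log2 differences were 1.03 and 1.28, beside 0.76 for DCAF16. The deposited reads of NCAPG and LCORL were not whole numbers in either library, so some may have been divided between them. PROM1, which encodes the surface protein CD133, was at 2.56 and 6.41 CPM. All of these genes were chosen after their values were seen, and each value is that of 1 library.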
